A study of Homo sapiens with 6 samples.

Results

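The 56 clustered histone genes described here are the entries whose symbols begin with HIST1H, HIST2H or HIST3H, out of 14136 gene entries measured. They fall into 3 H1, 14 H2A, 16 H2B, 13 H3 and 10 H4 genes. Of these, 42 belong to the HIST1 cluster on chromosome 6, and 11 belong to the HIST2 and 3 to the HIST3 cluster on chromosome 1. They were read in 6 libraries of Cal33, an established human line of oral squamous cell carcinoma. The CES2 group (n = 3) carried lentiviral pSin-EF2 with FLAG-tagged CES2, a carboxylesterase that cleaves esters in drugs and lipids. The Vector group (n = 3) carried the same lentiviral vector without an insert. Both groups were infected with virus packaged in 293FT cells, and stably carrying cells were selected with puromycin. The labels give neither the number of separate infections or cultures nor whether a line came from 1 clone, so the p-values speak for the scatter of these libraries, part or all of which may be technical. The study's question was how CES2 overexpression alters the transcriptome, and CES2 against Vector is its only comparison.

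Replication-dependent histone genes encode the core histones H2A, H2B, H3 and H4, around which DNA is wrapped, and the linker histone H1, which binds between nucleosomes. Their mRNAs are made mostly in S phase, when new DNA must be packaged. Unlike other mRNAs they end in a conserved stem-loop instead of a poly(A) tail, and the stem-loop-binding protein SLBP binds it. The submitters' protocol removed ribosomal RNA from total RNA, and such a step does not itself select for a poly(A) tail. How fully mRNAs without a tail were recovered in these libraries was not tested.

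The stem-loop is shown because it is the sequence feature that defines this class of mRNA. The listed transcript of each gene, as deposited, had the same length in GENCODE release 29 (GRCh38) for all 56 genes. Those transcripts were searched on their own strand for GGNNCTTNTNAGNGCC, where N is any base. A match stood in 28 of the 56 listed transcripts, against 0.06% of all GENCODE transcripts (115 of 206694). The 6 forms found, with both arms of the stem in capitals and the loop in lower case, were these.
Form in 16 H2A, H2B and H3 genes, HIST3H2A and HIST1H2BH among them: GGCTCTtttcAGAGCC
Form in 4 H2B and H3 genes, HIST3H3 and HIST1H2BD among them: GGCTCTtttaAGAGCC
Form in HIST1H4E, HIST1H4H and HIST1H4J: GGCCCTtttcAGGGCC
Form in HIST1H4I, HIST2H4A and HIST2H4B: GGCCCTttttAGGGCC
Form in HIST1H3E: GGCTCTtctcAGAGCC
Form in HIST1H2AG: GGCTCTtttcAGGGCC
The forms with 4 bases GGCC at the start stood in H4 genes, and the forms with GGCT in the other core classes. The search gave no match in 23 genes whose listed transcript is the coding part alone, nor in HIST1H4C, whose listed transcript of 435 bases is longer than its coding part of 312 bases. A missing match says only that these letters are not in the listed transcript. Listed transcripts with a match ran on past it, by between 6 bases (HIST1H4J) and 1917 bases (HIST3H2BB).

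Histone paralogs resemble each other, so the share of each listed transcript that also occurs in another gene was computed from 50-base stretches. The median was 3.95% over the 56 genes. It was under 5% in 31 genes and over 50% in 16. All stretches were shared in 7 genes, HIST1H3D, HIST1H4K, HIST2H2AA3, HIST2H3A, HIST2H3C, HIST2H4A and HIST2H4B. Values of near-identical pairs are therefore uncertain as single genes, since reads could have been split between the copies. In addition 11 genes overlap another gene, some on the opposite strand, and how strand was used in quantification is not given in the sources used here. Some of the sharing is with such an overlapping gene, not with a separate copy. HIST1H3D (100%) and HIST1H2AD (98.0%) share with AL031777.3, and HIST1H2AM (86.3%) shares with HIST1H3J. Each of these overlaps is on the same strand.

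As a check of the labels, CES2 stood at 2664, 1929 and 2294 TPM in CES2 libraries 1 to 3, against 45.6, 41.9 and 44.9 TPM in Vector libraries 1 to 3 (limma log2 fold change 5.66 ± 0.18 SE, adjusted p = 7.38e-06). TPM is transcript abundance per length, scaled to a total of 1000000 per library. It keeps no sequencing depth, so the depth behind each value is unknown. Listed histone transcripts differ in how far they run past the coding part, so levels of different histone genes may not be strictly comparable. Of the squamous and epithelial markers, KRT5 lay between 1031 and 2597 TPM, KRT17 between 1111 and 1941 TPM and EPCAM between 314 and 457 TPM over the 6 libraries. Of 13 markers listed, 9 were analysed. Among those chosen outside the naming rule, the squamous marker KRT14 lay between 1.14 and 2.97 TPM, the endothelial markers VWF between 0.382 and 1.87 TPM and PECAM1 between 0.128 and 0.549 TPM, and the fibroblast marker COL1A1 between 3.89 and 10.5 TPM. A gene was tested where 3 or more libraries reached 1 TPM, which held for 12210 genes, 51 histone genes among them. HIST1H2AD, HIST2H2BF, HIST1H2BM, HIST1H3I and HIST1H2BF did not pass that filter.

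All 56 histone genes together summed to 494, 498 and 974 TPM in CES2 libraries 1 to 3, against 382, 440 and 921 TPM in Vector libraries 1 to 3. Library 3 of each group stood well above libraries 1 and 2, and the groups overlapped. The means were 655 ± 276 TPM in CES2 and 581 ± 296 TPM in Vector (SD, n = 3 each). The sums of all 56 genes were between 0.0382% and 0.0974% of all TPM. HIST1H4C alone made up 34.9% of the sum in CES2 3 and 28.4% in Vector 3. Without it the sums were 494, 497 and 635 TPM in CES2, against 381, 439 and 659 TPM in Vector. Library 3 was still the highest of each group.

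H1, the linker class, summed to 57.4, 40.9 and 79.5 TPM in CES2 libraries 1 to 3, against 28.4, 36.7 and 103 TPM in Vector libraries 1 to 3. H2A, which forms a dimer with H2B in the nucleosome, summed to 135, 153 and 185 TPM in CES2, against 141, 113 and 198 TPM in Vector. H2B summed to 172, 168 and 229.6 TPM in CES2, against 112, 191 and 209.8 TPM in Vector. In these 3 classes library 3 was the highest of its group in both groups, and the groups overlapped. H3, whose tail carries many of the known histone marks, summed to 42.2, 34.8 and 61.5 TPM in CES2, against 22.6, 32.0 and 66.2 TPM in Vector. H4, the partner of H3, summed to 88.0, 100.8 and 418 TPM in CES2, against 78.1, 66.9 and 344 TPM in Vector. The H4 means were 202 ± 187 TPM in CES2 and 163 ± 157 TPM in Vector (SD, n = 3 each), so the SD was nearly as large as the mean. Without HIST1H4C the H4 sums were 87.3, 100.4 and 78.5 TPM in CES2, against 77.8, 65.7 and 81.7 TPM in Vector. Library 3 no longer stood apart, and the means were 88.8 ± 11.02 TPM in CES2 and 75.1 ± 8.30 TPM in Vector. The ratio of mean H4 sums, CES2 over Vector, was 1.24 with HIST1H4C and 1.18 without it. The ratios of the other classes lay between 1.05 (H2A) and 1.15 (H3), each within the spread between libraries.

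**Figure D1:**
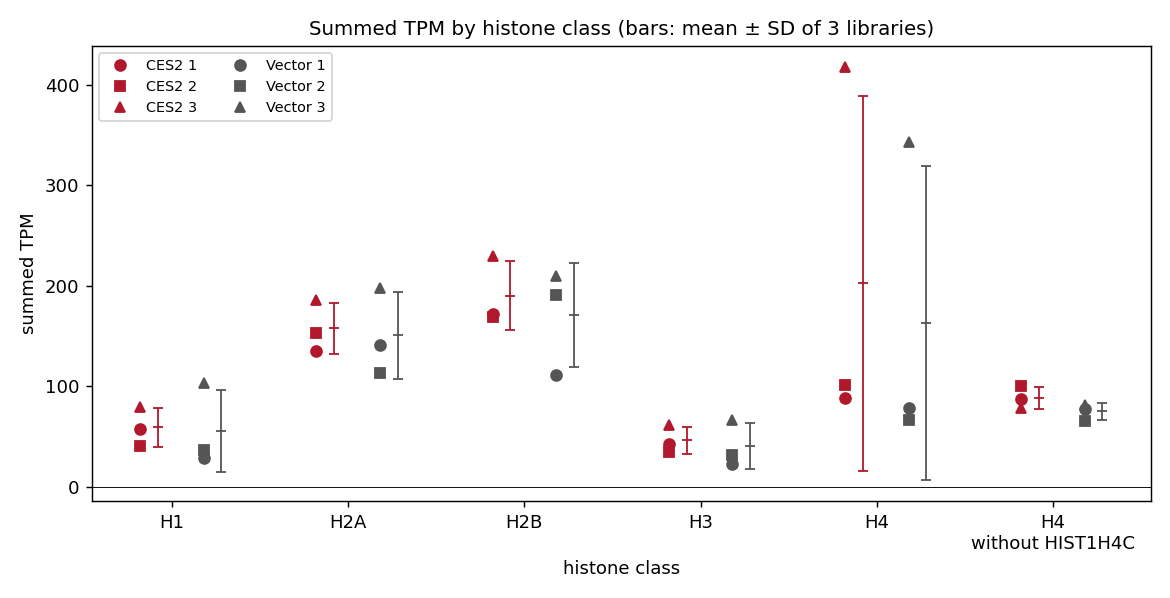
Summed TPM of each histone class in each library, CES2 in red and Vector in grey, with bars for the mean ± SD of 3 libraries. Library 3 of both groups lies highest in H1, H2A, H2B, H3 and H4, and the H4 sums of 418 TPM (CES2 3) and 344 TPM (Vector 3) drop to 78.5 and 81.7 TPM without HIST1H4C.

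HIST1H4C was the gene with the widest spread between libraries. It is 1 of several genes that encode the same H4 protein, and it lies at chr6:26103876-26104310 on the plus strand (GRCh38) as 1 exon. It stood at 0.677, 0.382 and 339.6 TPM in CES2 libraries 1 to 3, against 0.377, 1.17 and 262 TPM in Vector libraries 1 to 3. It was thus high in library 3 of both groups and near 1 TPM or below in the other 4 libraries, and the groups overlapped. The highest value was 901 times the lowest, and the range of 7.95 on the log2(TPM + 1) scale was rank 1 of the 12210 genes tested. HIST1H4C made up 81.2% of the H4 sum in CES2 3 and 76.2% in Vector 3, and at most 1.74% in any other library. None of its 50-base stretches occurs in another gene, and it overlaps no other gene. Its log2 fold change was 0.0035 ± 2.48 SE (limma unadjusted p = 0.999). Leaving out CES2 3 moved this to -2.60, and leaving out Vector 3 moved it to 2.42.

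The next most abundant H4 genes, HIST1H4J and HIST1H4K, ran the other way. HIST1H4J stood at 28.4, 34.8 and 12.2 TPM in CES2 libraries 1 to 3, against 27.5, 14.8 and 9.78 TPM in Vector libraries 1 to 3. HIST1H4K stood at 27.6, 37.0 and 14.0 TPM in CES2, against 30.7, 16.8 and 11.4 TPM in Vector. Both were lowest in library 3 of each group, where HIST1H4C was high, and for both the groups overlapped. All 50-base stretches of HIST1H4K occur in HIST1H4J, so these are 2 readings of near-identical transcripts. HIST2H4B, an H4 gene of the chromosome 1 cluster, stood at 9.23, 9.26 and 15.3 TPM in CES2, against 8.19, 10.2 and 18.03 TPM in Vector. HIST1H4H stood at 6.61, 5.91 and 12.3 TPM in CES2, against 1.59, 5.40 and 11.7 TPM in Vector. Both were higher in library 3 of each group than in that group's other libraries. The log2 fold change of HIST1H4H was 0.58 ± 0.55 SE and became -0.03 without Vector 1.

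**Figure D2:**
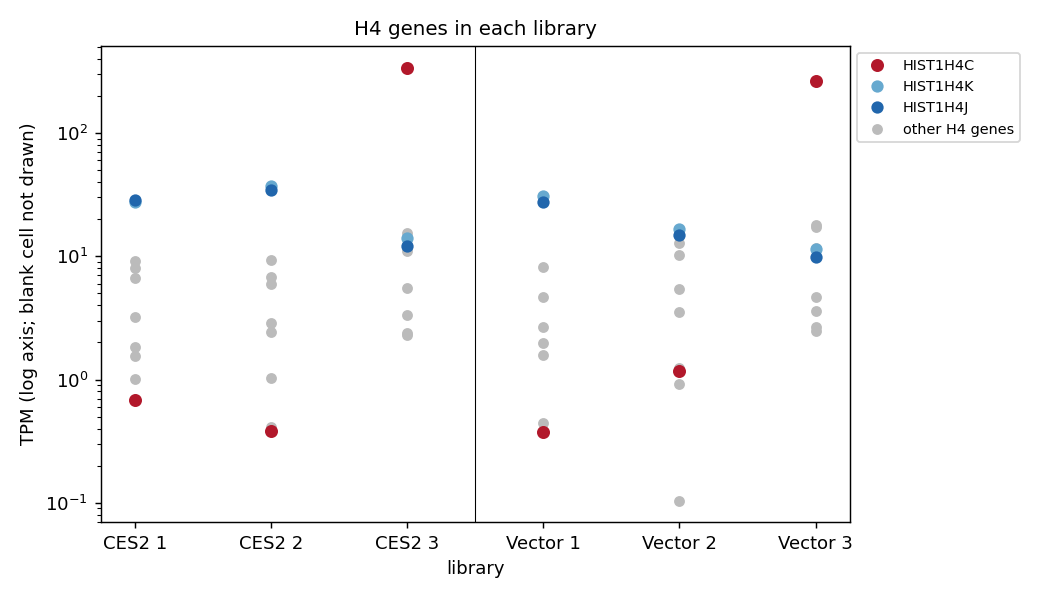
TPM (log axis) of the 10 H4 genes in each of the 3 CES2 and 3 Vector libraries, 1 point a gene, with HIST1H4C in red and HIST1H4J and HIST1H4K in blue. HIST1H4C is the highest H4 gene in CES2 3 and Vector 3, while HIST1H4J and HIST1H4K lead in the other 4 libraries.

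The promoters of HIST1H4J and HIST1H4K are shown because the values of these genes ran alike. Reads could have been split between these near-identical transcripts, so that likeness cannot be related to the promoters. The 120 bases before the transcription start, from RefSeq (GRCh38.p14), differ at 1 base and are alike at 119, and the motif TATAAA is in capitals.
HIST1H4J, chr6:27823972-27824091, plus strand: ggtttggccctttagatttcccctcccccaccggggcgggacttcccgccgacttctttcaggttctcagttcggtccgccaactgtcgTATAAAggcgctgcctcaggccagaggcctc
HIST1H4K, chr6:27831561-27831680, minus strand: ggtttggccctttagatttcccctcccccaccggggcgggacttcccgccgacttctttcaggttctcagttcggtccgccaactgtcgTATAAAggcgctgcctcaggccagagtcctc
TATAAA, the core of the TATA box, begins 31 bases before the start in both. A RefSeq promoter was found for 46 of the 56 genes. Searched on both strands of the same 120-base window, TATAAA stood in 26 of 46, against 6.0% of 27305 promoters. CCAAT, the box bound by the factor NF-Y, stood in 39 of 46, against 21.2% of those promoters. It stood in 38 of the 38 H1, H2A, H2B and H3 promoters and in 1 of the 8 H4 promoters. HIST1H2AD and HIST1H3D had the same window, so 1 window is counted in both H2A and H3. The matches of both motifs shared a base in 0 of the 46 windows, and a match is a description of the window only.

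HIST1H1C, which encodes the linker histone H1.2, was the most abundant H1 gene. It stood at 54.6, 37.6 and 66.0 TPM in CES2 libraries 1 to 3, against 26.0, 31.7 and 84.4 TPM in Vector libraries 1 to 3. HIST1H1E, which encodes H1.4, stood at 0.878, 2.37 and 7.47 TPM in CES2, against 1.98, 3.99 and 13.0 TPM in Vector. HIST1H1D, which encodes H1.3, stood at 1.89, 0.930 and 6.10 TPM in CES2, against 0.354, 0.968 and 5.46 TPM in Vector. In all 3 linker genes library 3 was the highest of its group, and the groups overlapped. The highest library was 14.9 times the lowest for HIST1H1E and 17.2 times for HIST1H1D. Their log2 fold changes were 0.31 ± 0.42 SE for HIST1H1C, -0.66 ± 0.67 SE for HIST1H1E and 0.40 ± 0.66 SE for HIST1H1D. None of these directions was firm. Without Vector 3 HIST1H1E was at -0.03, and without CES2 1 it was at -0.15. Without Vector 1 HIST1H1C was at -0.01 and HIST1H1D at -0.06, and without CES2 3 HIST1H1D was at -0.13.

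Among the H2A genes HIST3H2A was the most abundant and the most even. It stood at 44.6, 46.9 and 46.2 TPM in CES2 libraries 1 to 3, against 44.4, 30.6 and 43.6 TPM in Vector libraries 1 to 3. Every CES2 value was above every Vector value, but the nearest pair, CES2 1 and Vector 1, differed by less than either group's SD (1.17 TPM in CES2 and 7.77 TPM in Vector). The log2 fold change was 0.23 ± 0.21 SE (limma unadjusted p = 0.297, adjusted p = 1.00), and without Vector 2 it was 0.06. HIST2H2AC stood at 18.8, 29.2 and 29.6 TPM in CES2, against 29.2, 12.4 and 29.5 TPM in Vector. HIST2H2AA3 stood at 18.5, 22.4 and 25.8 TPM in CES2, against 18.05, 17.3 and 31.3 TPM in Vector. HIST2H2AA4, its near-identical copy, lay between 16.9 and 31.3 TPM, and the groups overlapped in all 3. HIST1H2AI stood at 1.90, 3.97 and 5.42 TPM in CES2, against 4.67, 4.37 and 5.65 TPM in Vector. Its log2 fold change of -0.38 ± 0.33 SE was the lowest of the H2A genes, and without CES2 1 it was -0.06. The other H2A genes averaged between 0.687 TPM (HIST1H2AD) and 10.1 TPM (HIST1H2AC) over the 6 libraries.

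By its mean over the 6 libraries HIST1H2BK was the most abundant H2B gene and the most abundant of all 56. It stood at 112, 94.2 and 147 TPM in CES2 libraries 1 to 3, against 58.0, 131 and 119 TPM in Vector libraries 1 to 3. The groups overlapped, with Vector 1 as the lowest library, and 61.4% of its 50-base stretches also occur in the H2B gene H2BFS. HIST1H2BD stood at 15.1, 19.2 and 21.8 TPM in CES2, against 9.54, 15.3 and 27.0 TPM in Vector. HIST1H2BH stood at 16.8, 26.7 and 8.58 TPM in CES2, against 16.1, 9.99 and 7.86 TPM in Vector. Like HIST1H4J and HIST1H4K it was lowest in library 3 of each group. HIST2H2BE, whose transcript can also end in a poly(A) tail, stood at 5.58, 5.90 and 5.66 TPM in CES2, against 9.59, 7.04 and 4.85 TPM in Vector.

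For a further pair of H2B genes 1 or 2 libraries lay far above the rest. HIST1H2BE stood at 2.19, 2.21 and 0.876 TPM in CES2, against 2.24, 1.9999 and 11.3 TPM in Vector. Vector 3 stood apart from the other 5 libraries, the log2 fold change was -0.88 ± 0.55 SE, and without Vector 3 it was -0.22. It overlaps the antisense gene AL353759.1 on the opposite strand, in which 26.9% of its 50-base stretches also occur when both strands are read. HIST1H2BM, which did not pass the filter, stood at 0.288, 0.336 and 8.98 TPM in CES2, against 0.861, 0.634 and 3.69 TPM in Vector. It was high in library 3 of both groups, as HIST1H4C was, and none of its 50-base stretches occurs in another gene.

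The H3 genes were low, at means between 1.19 TPM (HIST1H3I) and 6.09 TPM (HIST1H3H) over the 6 libraries. HIST1H3H stood at 6.76, 3.92 and 8.56 TPM in CES2 libraries 1 to 3, against 2.35, 6.64 and 8.27 TPM in Vector libraries 1 to 3. HIST1H3J stood at 3.77, 2.18 and 14.4 TPM in CES2, against 1.81, 2.16 and 10.5 TPM in Vector, again highest in library 3 of both groups. HIST2H3A stood at 2.71, 2.12 and 5.83 TPM in CES2, against 1.04, 3.68 and 9.40 TPM in Vector, and its sequence is shared in full with HIST2H3C. In these 3 genes the groups overlapped. HIST1H3C stood at 8.20, 10.4 and 3.60 TPM in CES2, against 5.13, 0.980 and 4.55 TPM in Vector. Its log2 fold change of 0.95 ± 0.51 SE (limma unadjusted p = 0.0972, adjusted p = 1.00) was the highest of the 51 tested genes, yet CES2 3 lay below 2 Vector libraries. It was 0.43 without Vector 2, 0.68 without CES2 2 and between 0.83 and 1.33 without any other single library. HIST3H3, known as the testis H3 gene, stood at 0.777, 1.27 and 0.488 TPM in CES2, against 4.18, 1.17 and 2.03 TPM in Vector. It had the smallest p of the 51 (log2 fold change -0.84 ± 0.38 SE, limma unadjusted p = 0.0581, adjusted p = 1.00), with 1 CES2 library above the lowest Vector library, and its fold change was -0.50 without Vector 1.

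**Figure D3:**
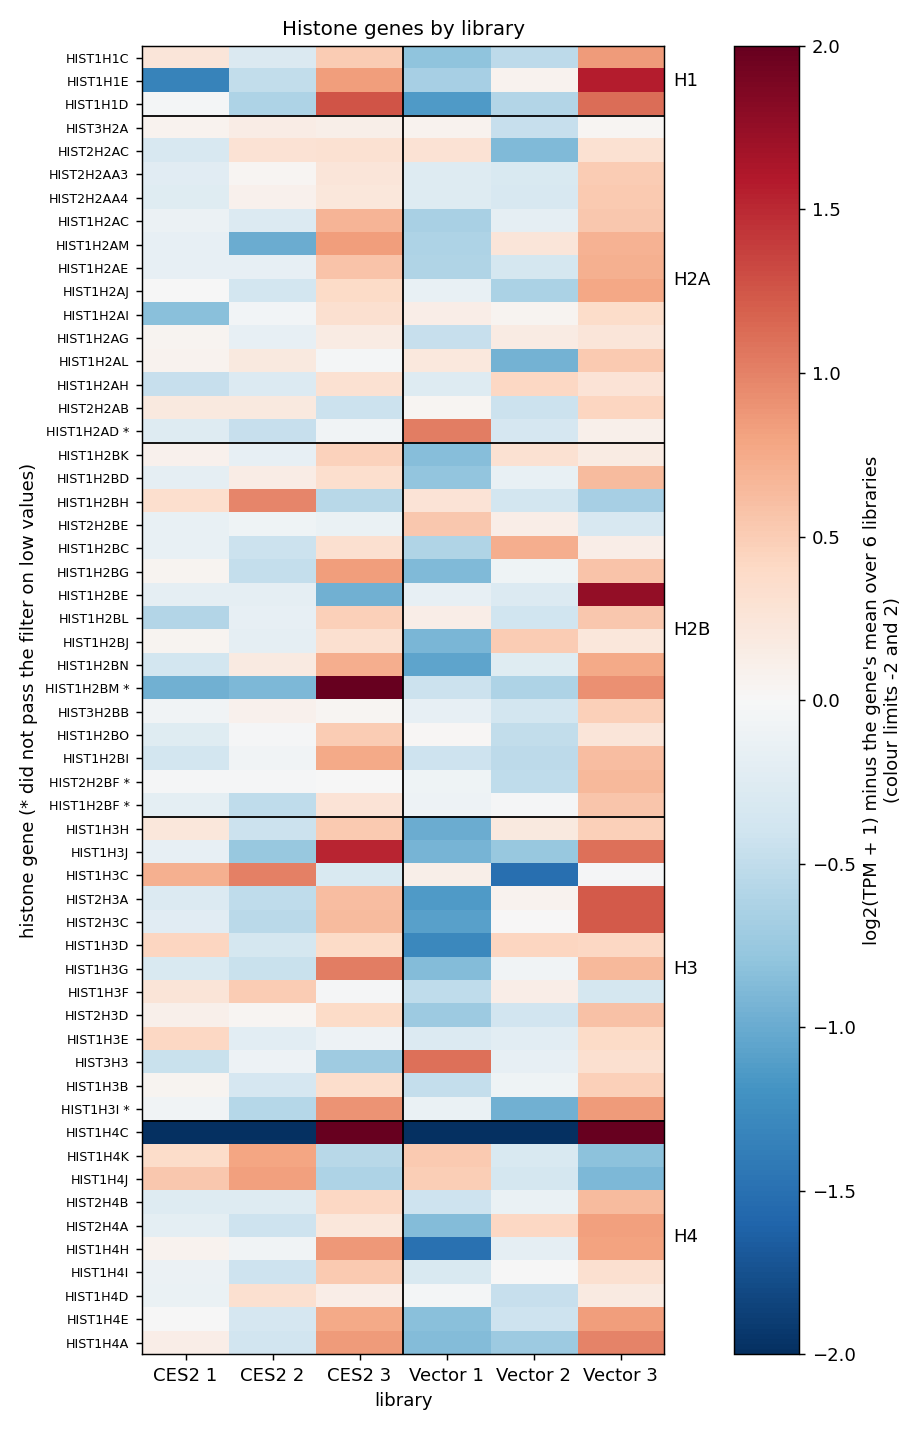
Each of the 56 histone genes in the 3 CES2 and 3 Vector libraries, as log2(TPM + 1) minus the gene's mean over 6 libraries, in colours limited at -2 and 2 and ordered by class and mean level. Red fills much of the CES2 3 and Vector 3 columns, while HIST1H4K, HIST1H4J and HIST1H2BH run the other way.

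For CES2 against Vector, limma with Benjamini-Hochberg adjustment over all 12210 genes passed 0 of the 51 histone genes at an adjusted p of 0.05. Over all genes it passed 1, CES2 itself (0.00819%). At an unadjusted p under 0.05 there were 0 histone genes, against 133 of all genes (1.09%). The groups did not overlap for 1 histone gene that was higher in CES2, HIST3H2A (1.07% of all genes), and for 0 that were lower (2.63% of all genes). Leaving out 1 library makes non-overlap easier for every gene. Without Vector 3 there were 13 higher histone genes (25.5%), against 5.23% of all genes, and 1 lower, against 4.64%. Without CES2 3 there were 5 higher (9.80%), against 5.12% of all genes, and 2 lower, against 6.93%. Without Vector 2 there were 2 higher, against 2.95% of all genes, and 3 lower (5.88%), against 15.0% of all genes. The count lower became 2 without Vector 1 (3.92%, against 6.91% of all genes) and 1 without CES2 2 (1.96%, against 6.1% of all genes). The count of all genes past the adjusted threshold became 2 without CES2 3. With all 6 libraries the shares are close to the background, and 0 of 51 does not show that the genes were unaltered, given the spread between libraries.

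The log2 fold change was above 0 in 36 of the 51 histone genes (70.6%), against 36.3% of all tested genes. The median was 0.16 for the histone genes and -0.06 for all tested genes. By class the medians were 0.31 for H1 (2 of 3 above 0), 0.04 for H2A (9 of 13), 0.16 for H2B (9 of 13), 0.20 for H3 (9 of 12) and 0.25 for H4 (7 of 10). By cluster they were 0.20 for HIST1 (30 of 38 above 0), -0.05 for HIST2 (4 of 10) and 0.03 for HIST3 (2 of 3). The 27 tested genes with a stem-loop in the listed transcript had a median of 0.04 (17 above 0), and the 20 listed as the coding part alone had a median of 0.24 (17 above 0). Most of these directions rested on single libraries. The median of the coding-part genes lay between 0.04 and 0.42 as each library was left out, while the stem-loop median was -0.11 without Vector 1, -0.08 without CES2 3 and -0.01 without Vector 2. The HIST1 median was -0.09 without Vector 1 and -0.04 without CES2 3, and the HIST2 and HIST3 medians also changed sign as single libraries were left out. Every class median was below 0 without Vector 1, and every one but that of H4 (0.02) was below 0 without CES2 3. Without Vector 1 the count above 0 was 14 and the median -0.08, and without CES2 3 the count was 21 and the median -0.06. Without Vector 2 the median was 0.03, and without Vector 3 the count was 44 and the median 0.36.

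**Figure D4:**
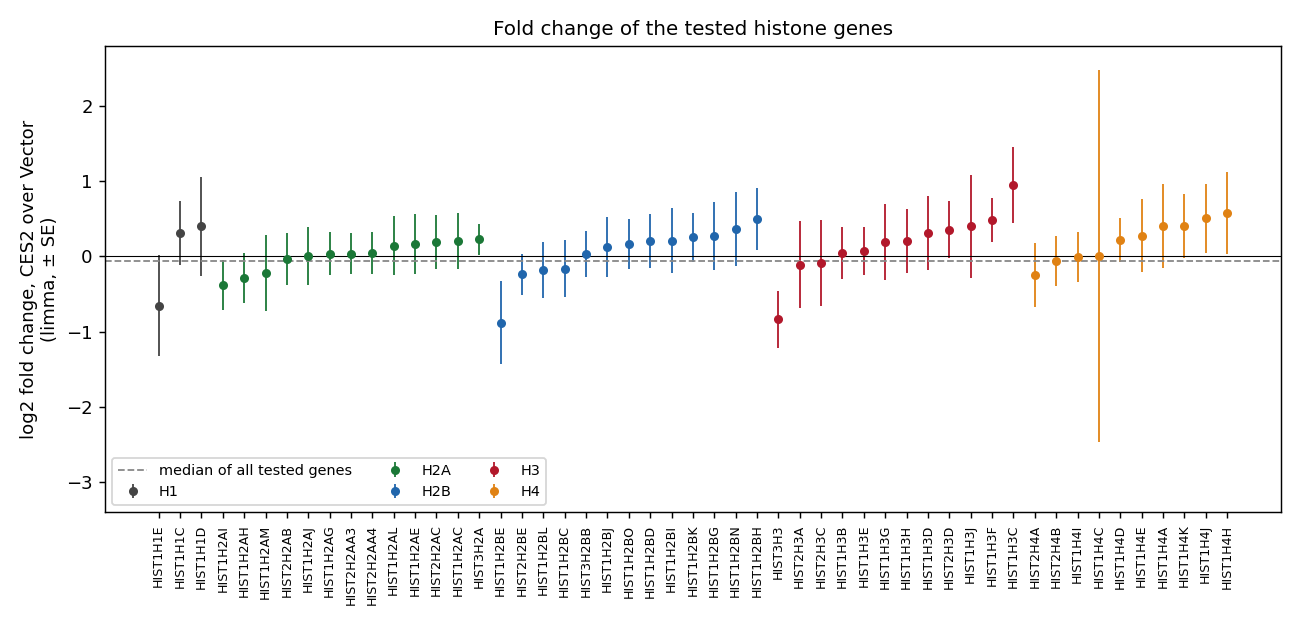
Log2 fold change of CES2 over Vector with its SE (limma) for the 51 tested histone genes, coloured by class and ordered within it, with the median of all tested genes (-0.06) as a dashed line. The points run from -0.88 (HIST1H2BE) to 0.95 (HIST1H3C), and HIST1H4C has an SE of 2.48.

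Across the histone genes CES2 3 and Vector 3 lay above the other 4 libraries. The median deviation from each gene's mean, on the log2(TPM + 1) scale, was -0.12, -0.17 and 0.38 in CES2 libraries 1 to 3 and -0.47, -0.24 and 0.52 in Vector libraries 1 to 3. Over all tested genes these median deviations lay between -0.09 and 0.14. CES2 3 and Vector 3 were the 2 highest libraries for 30 of the 51 tested histone genes (58.8%), against 18.03% of all tested genes, a pattern noticed after the values were seen. Vector 1 was the lowest library for 27 of 51 (52.9%), against 18.3% of all tested genes, and for 10 of the 12 tested H3 genes. Without CES2 3 and Vector 3 the median log2 fold change was 0.25, with 40 of 51 above 0.

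Proliferation genes are set beside these values, since they also differed between libraries. All 10 of the G2 and M phase markers were tested, and their summed level was 2185, 1965 and 2462 TPM in CES2 libraries 1 to 3 and 1896, 2232 and 2387 TPM in Vector libraries 1 to 3. The marker MKI67, chosen after its values were seen, stood at 155, 130 and 194 TPM in CES2, against 129, 136 and 216 TPM in Vector. Not all of the 10 ran this way. CDK1 was lowest in library 3 of each group, at 224, 190 and 181 TPM in CES2, against 243, 211 and 197 TPM in Vector. The 25 genes of S phase and DNA replication summed to 3826, 2921 and 4466 TPM in CES2, against 2926, 4372 and 4462 TPM in Vector. As with the histone genes, library 3 was high in both groups and Vector 1 low, but Vector 2 was also high and the lowest sum was in CES2 2. The part of these differences in the histone values was not tested. In bulk RNA, fewer cells making a transcript and less of it per cell cannot be told apart.

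The histone genes were also wider in spread than other genes. The median range over the 6 libraries was 1.41 on the log2(TPM + 1) scale, against 0.78 for all tested genes and 0.89 for the 4808 other genes with mean levels between 1.75 and 22.9 TPM. Linker genes had a median range of 2.39, H3 genes of 1.76, H4 genes of 1.68, H2B genes of 1.33 and H2A genes of 1.20. The range passed 2 in 9 of 51 (17.6%), against 3.86% of all tested genes and 5.95% of the genes of like level. Those 9 were HIST1H4C, HIST1H1E, HIST1H2BE, HIST1H3C, HIST1H3J, HIST1H1D, HIST1H4H, HIST2H3A and HIST2H3C, the last 2 of which share their whole sequence.

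**Figure D5:**
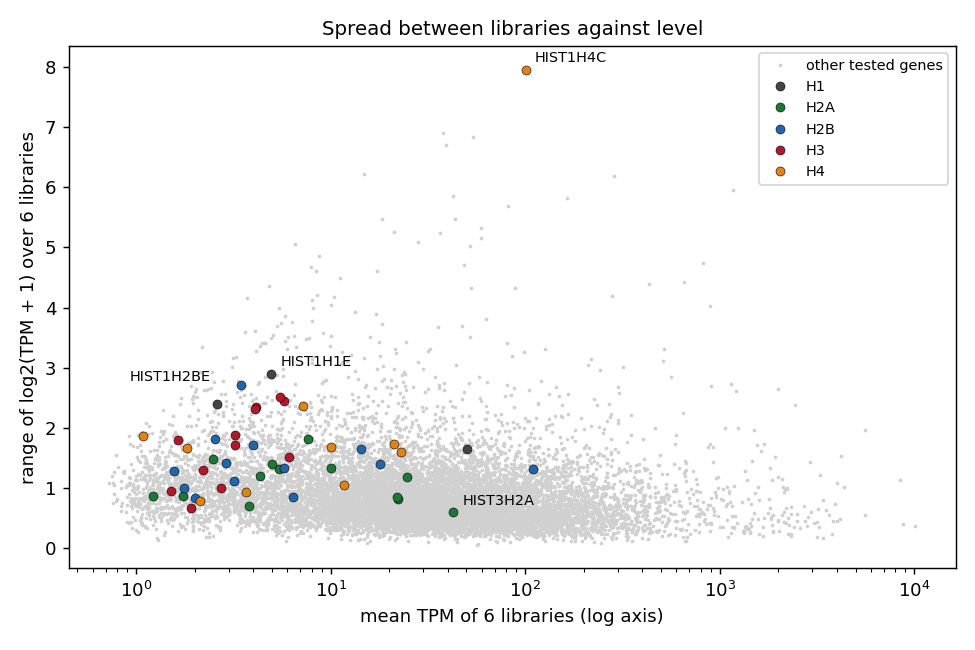
Range of log2(TPM + 1) over the 6 libraries (3 CES2 and 3 Vector) against mean TPM (log axis), with the 51 tested histone genes coloured by class and other tested genes in grey. HIST1H4C lies highest of all at 7.95, and HIST3H2A has the smallest range of the histone genes at 0.60.

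Genes that make, process or hold histones showed no call in the same limma fit. Of 26 tested genes for histone mRNA transcription and 3′ end processing, 0 passed the adjusted threshold. Of the 26, 7 had a log2 fold change above 0 and 19 below, with a median of -0.06. That median was near that of all tested genes (-0.06), of which 36.3% were above 0. The lowest p belonged to ERI1, an exonuclease that acts on the histone mRNA end, at 15.3, 12.3 and 11.7 TPM in CES2 libraries 1 to 3 and 13.1, 15.4 and 19.0 TPM in Vector libraries 1 to 3. NFYB, a subunit of the CCAAT-binding NF-Y, averaged 36.0 ± 6.04 TPM in CES2 and 41.7 ± 4.42 TPM in Vector (SD, n = 3 each). ZNF473, a component of the U7 snRNP machinery that cleaves histone pre-mRNA, averaged 7.42 ± 0.53 TPM in CES2 and 6.49 ± 0.04 TPM in Vector, with groups that did not overlap. Of these 26 genes ZNF473 was the only one with non-overlapping groups, at a log2 fold change of 0.17 ± 0.22 SE. Of all tested genes 1.07% did not overlap and were higher in CES2.

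Of 12 tested replication-independent and variant histones, 0 passed, with 7 above 0, 5 below and a median of 0.0040. Of all tested genes 36.3% were above 0, with a median of -0.06. CENPA, the H3 variant of centromeres, averaged 52.3 ± 5.70 TPM in CES2 and 61.4 ± 4.77 TPM in Vector. HIST4H4, an H4 gene outside the 3 clusters, averaged 3.72 ± 0.93 TPM in CES2 and 2.67 ± 1.22 TPM in Vector. H1FX, a replication-independent linker histone, averaged 843 ± 308 TPM in CES2 and 669 ± 154 TPM in Vector, and the groups overlapped in all 3. H1FX alone had a higher TPM than all 56 clustered genes together in 4 of the 6 libraries. Recovery of mRNAs without a poly(A) tail was not tested, so only measured values are compared.

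Of 21 tested histone chaperones, 0 passed the adjusted threshold, with 8 above 0, 13 below and a median of -0.06. These values lay near those of all tested genes, of which 36.3% were above 0, with a median of -0.06. RBBP4, a subunit of the CAF-1 assembly factor, stood at 44.5, 41.7 and 45.8 TPM in CES2 libraries 1 to 3, against 77.5, 52.3 and 71.5 TPM in Vector libraries 1 to 3. NASP, which binds free H3 and H4, stood at 197, 232 and 197 TPM in CES2, against 236, 292 and 299.7 TPM in Vector. For both, every CES2 library was below every Vector library. RBBP4 and NASP were the only 2 of the 21 whose groups did not overlap. Of all tested genes 2.63% did not overlap and were lower in CES2. ANP32E, a chaperone of H2A.Z, averaged 119.6 ± 48.1 TPM in CES2 and 129.9 ± 18.8 TPM in Vector, and the groups overlapped. The log2 fold change was -0.58 ± 0.20 SE for RBBP4 (limma unadjusted p = 0.0207, adjusted p = 1.00) and -0.40 ± 0.18 SE for NASP (limma unadjusted p = 0.055, adjusted p = 1.00). Of 25 tested genes of S phase and DNA replication, 0 passed, with 2 above 0, 23 below and a median of -0.09. The median of all tested genes, 36.3% of them above 0, was itself -0.06. GINS1, a subunit of the replicative helicase, averaged 52.7 ± 7.61 TPM in CES2 and 60.8 ± 7.49 TPM in Vector. RFC3, a subunit of the clamp loader, averaged 70.05 ± 18.8 TPM in CES2 and 80.6 ± 13.3 TPM in Vector, and the groups overlapped for both. Of the 10 cell cycle markers 0 passed, and the mitotic kinase AURKA stood at 246, 220.5 and 174 TPM in CES2, against 165, 157 and 157 TPM in Vector, with groups that did not overlap (log2 fold change 0.40 ± 0.18 SE, limma adjusted p = 1.00). AURKA was the only 1 of the 10 markers without overlap, while 1.07% of all tested genes did not overlap and were higher in CES2. The mitotic kinase CDK1 averaged 198 ± 22.5 TPM in CES2 and 217 ± 23.7 TPM in Vector. AURKB, another mitotic kinase, averaged 164 ± 28.8 TPM in CES2 and 149 ± 9.04 TPM in Vector. The groups overlapped for CDK1 and AURKB.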

How the data were processed

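Total RNA was depleted of ribosomal RNA and made into strand-specific libraries, per the labels' protocols. The authors deposited 1 table with 6 columns of values and no named unit. The deposited values were read as TPM because each column summed to between 999804 and 999893. HISAT2 2.1.0, StringTie 1.3.3, edgeR 3.0.8 and the builds hg38 and GRCh38 are named per the submitters' processing notes, with no order. The annotation is not given in the sources used here. Blanks (73 to 279 a library) were read as 0. Genes reaching 1 TPM in 3 or more libraries were transformed as log2(TPM + 1) and compared by limma 3.58.1 (R 4.3.3) with an intensity trend, group as the only term and Benjamini-Hochberg adjustment over 12210 genes at 0.05. This scale understates changes of low genes. The fit was also run on simulated data in which each gene varied independently. That run does not speak to shifts that many genes share in a library. Sums, ranges and plots were made with pandas 2.3.3 and matplotlib 3.10.9 under Python 3.11.15. TPM keeps no depth, so no counting interval was given.

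The histone genes, the gene lists and the alternatives were chosen with earlier results of these data known. Named histone genes were those with a value in every library that had up to the 4 highest means of a class, the 6 widest ranges, the 4 largest fold changes in each direction, or groups that did not overlap, and for other lists the 3 smallest p. Other genes named are those with shared sequences, stem-loops or filter failures, the widest ranges and, where said, chosen after their values were seen. The result of 1 gene of the S phase list is not reported here.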

Additional observations from a re-analysis of the deposited data

How the results depend on the processing

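Replicates were few and depth is unknown, so small differences between the groups could not be resolved. The count of histone genes past the adjusted threshold was 0 under every alternative run, and the count over all genes was between 1 and 2 as each library was left out in turn. The number of histone genes with a fold change above 0 ranged between 14 and 44 as single libraries were left out. It was 18 of 23 with a filter at a mean of 5 TPM, where fewer genes were tested. As single libraries were left out, histone genes with non-overlapping groups numbered between 1 and 13 (higher in CES2) and between 0 and 3 (lower in CES2). The share over all genes also moved, between 1.98% and 5.23% (higher) and between 4.64% and 15.0% (lower). Without CES2 3 and Vector 3, which leaves fewer values that can overlap, the histone numbers were 18 (35.3%, against 11.1% of all genes) and 3 (5.88%, against 9.25% of all genes). HIST1H4C turned to -0.10 with a pseudocount of 0.1, -0.12 with quantile normalization and -0.18 without CES2 3 and Vector 3, and ranged between -2.60 and 2.42 as single libraries were left out. HIST1H2BE turned to 0.036 without CES2 3 and Vector 3. HIST1H4H ranged between -0.026 and 1.12, HIST1H1C between -0.013 and 0.82 and HIST1H1D between -0.13 and 1.06 as single libraries were left out. Where no value shows it, the cause was not tested. Leaving out both libraries, the counts of non-overlapping genes, and the values of the clusters, the stem-loop groups, HIST1H1C and HIST1H1D were added after seeing the data. The medians of the classes moved by less than 1 SD between libraries in every alternative run. Those SDs, from 0.37 (H2A) to 0.88 (H1), were larger than every class median. A move under 1 SD therefore does not show that a direction held, and H3 went from 0.20 to -0.19 without Vector 1. With the replicate number as a replicate block, 0 histone genes and 1 gene over all passed, and the histone median was 0.16. Deviations of same-numbered libraries correlated at 0.15, -0.52 and 0.37, so the numbers were not taken to pair the libraries. Those of differently numbered libraries lay between -0.68 (CES2 3 with Vector 1) and 0.68 (CES2 2 with Vector 1). What such libraries had in common was not tested.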

Other observations

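Among the 10 genes with the widest ranges over the 6 libraries, a pair was chosen after the values were seen because both genes were low in CES2 3 and Vector 3, where HIST1H4C was high. The pair did not stand alone in this, since other genes of the 10 were also lowest of their group in both libraries. Those genes are not described. Both genes of the pair were also low in CES2 1 and Vector 2, where HIST1H4C was low. TXNIP, a thioredoxin-binding protein that responds to glucose, stood at 6.20, 95.1 and 0.918 TPM in CES2 libraries 1 to 3, against 217.8, 4.48 and 1.35 TPM in Vector libraries 1 to 3. HNRNPH2, an RNA-binding protein, stood at 1.89, 125 and 1.19 TPM in CES2, against 124.5, 1.83 and 1.79 TPM in Vector. HNRNPH2 was thus near 125 TPM in CES2 2 and Vector 1 and below 2 TPM in the other 4 libraries.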
